A study of Mus musculus with 6 samples.

Results

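Genes of the kinetochore, the spindle assembly checkpoint and the mitotic kinases, 44 in all, were chosen by name as a gene module and followed through RNA sequencing of primary airway basal cells, the stem cells of the airway epithelium, from the tracheas of wild-type mice. Each of the 44 names matched 1 of the 56748 genes in the deposited table. After 4 days of culture, 3 libraries came from cells given UK-5099, which blocks pyruvate import into mitochondria, and 3 from cells given 3 inhibitors together. These were Y-27632 and, for dual SMAD inhibition, A8301 against TGF-beta receptors and DMH-1 against BMP receptors. All 6 libraries are of wild-type cells, no untreated group was among the samples, and whether Y-27632 was also present with UK-5099 is not in the labels. Each difference is therefore one between 2 treatments, either of which may have moved. Nothing in the labels says that the replicates were separate cultures or animals, or gives age, so the p-values cover only a spread among libraries that may be technical.

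The kinetochore is the protein assembly that joins a chromosome to spindle microtubules. Its inner layer sits on centromeric chromatin that carries the histone variant CENP-A, and its outer layer, the KMN network, binds microtubules and is the platform on which unattached kinetochores build the checkpoint signal that holds back the anaphase-promoting complex. Many of these genes are transcribed mainly in G2 and mitosis, so that in dividing epithelium their RNA is known to follow the share of cycling cells. In bulk RNA a larger share of cells in mitosis and more RNA per such cell cannot be told apart.

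The libraries held between 19909589 and 27037795 gene reads. Of 8 basal cell markers 6 were higher and 1 lower with UK-5099, and their summed level was 288130 to 308110 normalized counts with UK-5099 and 139460 to 152360 with the 3 inhibitors. Most of that difference came from Krt5, at 113980 to 126850 with UK-5099 against 37166 to 42045, and Krt14, at 66732 to 74259 against 12197 to 12658. Krt15 overlapped between the groups. The marker that was lower was Ngfr, at 56.0 to 80.3 with UK-5099 against 268 to 351 with the 3 inhibitors. The 6 fibroblast markers summed to at most 14.6 normalized counts in any UK-5099 library, against 10.05 in any 3-inhibitor library, with 3 of them at 0 in every library. The 7 secretory cell markers, nearly all of it Cyp2f2, summed to 1127 to 1738 normalized counts with UK-5099 and 4648 to 5015 with the 3 inhibitors. Only 3 of the 7 were tested, and all 3 were called lower. The 5 endothelial genes summed to 51.8 to 65.9 with UK-5099, against 157 to 188 with the 3 inhibitors, with Cdh5 at 0 in every library. The 6 leukocyte genes, mostly Cd68, summed to 495 to 703 with UK-5099, against 518 to 540.1 with the 3 inhibitors. The 7 multiciliated cell genes, nearly all of it the tubulin gene Tubb4b, summed to 7139 to 7834 with UK-5099, against 5964 to 6321 with the 3 inhibitors. Of the leukocyte genes 1 was called lower; Cd74 was at 5.08 to 7.42 normalized counts with UK-5099 and 20.6 to 33.8 with the 3 inhibitors, and Lyz2 at 0 to 0.928 with UK-5099 and 9.14 to 20.6 with the 3 inhibitors. Xist, the RNA of the silenced X chromosome, was 1.70-fold higher with UK-5099, and all 4 Y-linked genes examined were lower, Kdm5d by a fold of 2.15, Eif2s3y of 1.88, Ddx3y of 1.76 and Uty of 1.52. Where these values differed, they did so between the same groups that are compared below, and their part in those results was not tested.

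With UK-5099, 43 of the 44 genes were higher than with the 3 inhibitors and none was lower, in a fit by limma across all 15704 genes tested with a Benjamini-Hochberg adjusted p under 0.05. Of all genes tested 53.8% were called, 27.2% higher and 26.6% lower. None of the 44 was lower at an unadjusted p under 0.05 either, nor with limma-voom on recovered reads, which called 43 higher, where 28.1% of all genes were called higher and 27.0% lower. The median log2 fold change of the 44 was 0.93, or 1.90-fold, against a median of 0.00 over all genes tested. In 43 genes every UK-5099 library exceeded every 3-inhibitor library, as did 30.7% of all genes tested. Of the called genes, 17 were at least 2-fold higher (4.67% of all genes tested), 35 at least 1.5-fold (10.5%), and 8 less than 1.5-fold. When each library was centred on its median, 42 of the 44 were higher, where 21.5% of all genes were called higher and 33.5% lower, and 39.1% of all calls were higher, against 50.6% without that centring. The 44 genes together took a share of 0.191 ± 0.00567% of each UK-5099 library's normalized counts on average, against 0.108 ± 0.00356% of each 3-inhibitor library's (SD over 3 libraries).

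**Figure D1:**
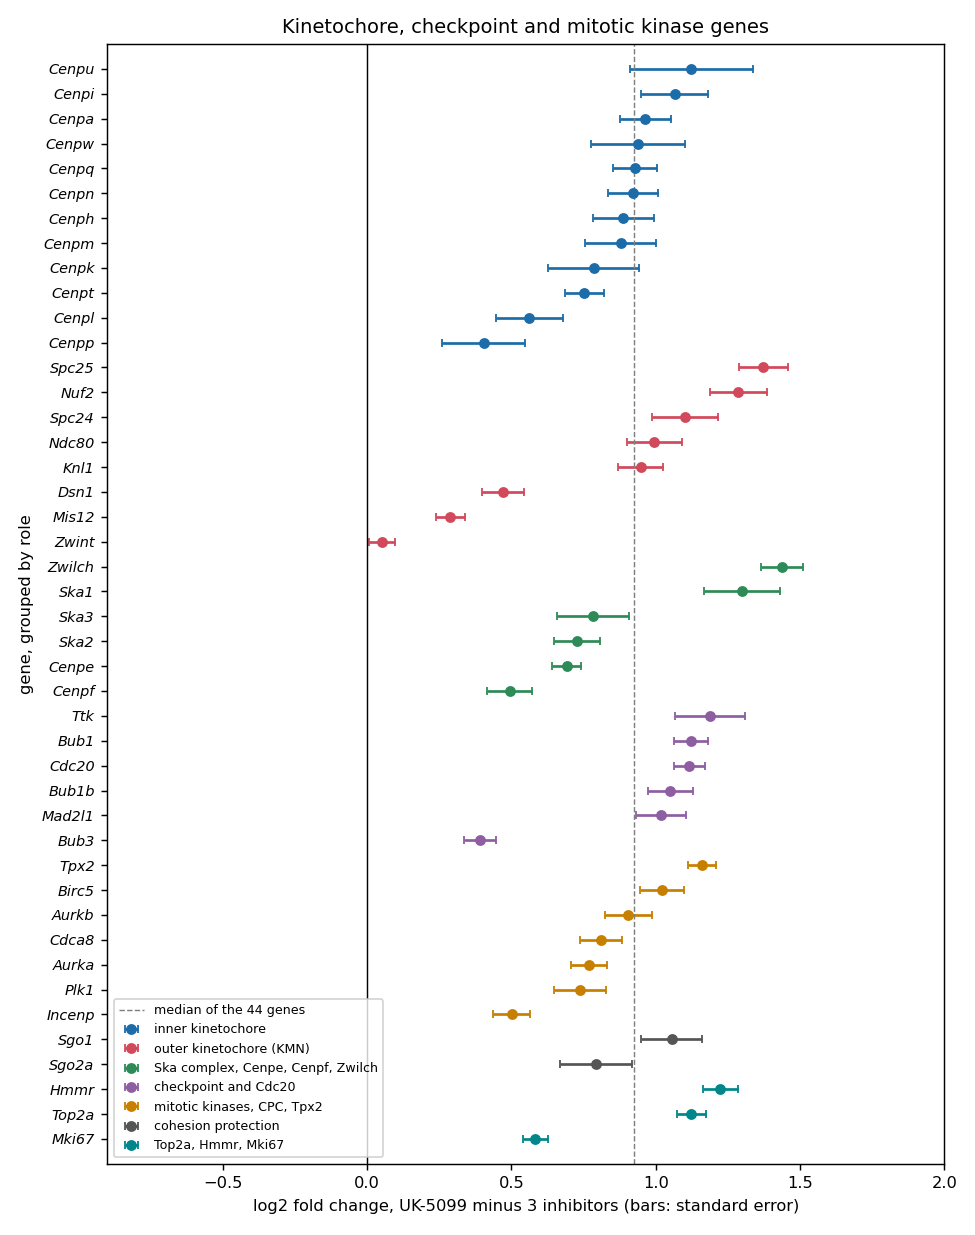
Log2 fold change of each of the 44 genes, UK-5099 minus 3 inhibitors (x axis), grouped by role down the page, with points for the limma estimate, bars for its standard error and a dashed line at the median of the 44. All points lie above 0, from 0.05 for Zwint to 1.44 for Zwilch.

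Promoters are shown because the genes moved together, and because genes of this kind are known to share a pair of DNA elements. These are the CHR (cell cycle genes homology region), which the MuvB complexes bind, and the CCAAT box, which NF-Y binds. The CHR was searched for only in the form TTTGAA, so genes counted as without TTTGAA may hold another form of it. RefSeq gave 42 promoter windows of GRCm38.p6 for 38 of the 44 genes, each running from 250 bases before a transcription start to 50 after it. The 6 genes without a window, among them Zwilch and Ska1, had a median log2 fold change of 1.13, against 0.90 for those with one. They are absent from the comparisons of motif and fold below. On either strand, 47.6% of these windows held TTTGAA and 78.6% held CCAAT, against 17.9% and 37.4% of all 32851 windows. The combination of TTTGAA with at least 2 CCAAT was in 31.0% of the windows of these genes, or 12 genes, and in 2.09% of all windows. Of the 13 genes that were at least 2-fold higher and had a window, 6 held TTTGAA and 7 did not, and 3 of these 7, Nuf2, Birc5 and Mad2l1, held neither motif. Spc25, Ttk and Cdc20 are shown as high-fold genes that carry 1 TTTGAA and 2 CCAAT, Nuf2 as the gene with the highest fold among those with neither, and Bub3 and Zwint for being among the 3 with the smallest difference. Capitals mark TTTGAA and CCAAT on either strand, which do not overlap in these windows.
Spc25, chr2:69206164-69206463, minus strand: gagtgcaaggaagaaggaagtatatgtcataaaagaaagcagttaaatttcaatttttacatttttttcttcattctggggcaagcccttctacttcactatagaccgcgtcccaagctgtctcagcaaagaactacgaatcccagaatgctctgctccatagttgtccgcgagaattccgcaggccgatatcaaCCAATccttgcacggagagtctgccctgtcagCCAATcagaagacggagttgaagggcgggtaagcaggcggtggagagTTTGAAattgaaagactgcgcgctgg
Ttk, chr9:83834439-83834738, plus strand: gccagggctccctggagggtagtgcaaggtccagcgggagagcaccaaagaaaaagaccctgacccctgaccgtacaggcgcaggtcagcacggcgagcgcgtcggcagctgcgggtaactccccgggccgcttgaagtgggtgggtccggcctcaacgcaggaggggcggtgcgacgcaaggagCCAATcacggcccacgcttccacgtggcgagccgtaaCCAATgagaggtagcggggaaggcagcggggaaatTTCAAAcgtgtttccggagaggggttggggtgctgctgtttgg
Cdc20, chr4:118437294-118437593, minus strand: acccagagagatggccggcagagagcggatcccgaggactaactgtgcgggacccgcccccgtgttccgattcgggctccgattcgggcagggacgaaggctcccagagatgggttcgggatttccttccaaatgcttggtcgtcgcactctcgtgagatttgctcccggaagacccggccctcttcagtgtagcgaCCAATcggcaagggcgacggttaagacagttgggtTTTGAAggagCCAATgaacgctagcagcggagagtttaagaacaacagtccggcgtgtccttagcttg
Nuf2, chr1:169531415-169531714, minus strand: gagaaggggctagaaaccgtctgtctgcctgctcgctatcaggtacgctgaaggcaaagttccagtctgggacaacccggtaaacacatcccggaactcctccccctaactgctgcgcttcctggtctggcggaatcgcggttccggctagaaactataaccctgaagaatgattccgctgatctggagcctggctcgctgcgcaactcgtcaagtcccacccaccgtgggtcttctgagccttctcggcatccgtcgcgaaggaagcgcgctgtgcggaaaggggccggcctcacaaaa
Bub3, the first of its 2 windows, chr7:131560120-131560419, plus strand: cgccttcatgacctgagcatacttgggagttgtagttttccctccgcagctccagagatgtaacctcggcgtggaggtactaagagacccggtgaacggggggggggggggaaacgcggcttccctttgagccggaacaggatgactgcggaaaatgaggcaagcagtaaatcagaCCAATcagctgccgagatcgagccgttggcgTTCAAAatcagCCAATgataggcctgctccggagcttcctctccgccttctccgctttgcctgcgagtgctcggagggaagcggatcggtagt
Zwint, chr10:72654596-72654895, plus strand: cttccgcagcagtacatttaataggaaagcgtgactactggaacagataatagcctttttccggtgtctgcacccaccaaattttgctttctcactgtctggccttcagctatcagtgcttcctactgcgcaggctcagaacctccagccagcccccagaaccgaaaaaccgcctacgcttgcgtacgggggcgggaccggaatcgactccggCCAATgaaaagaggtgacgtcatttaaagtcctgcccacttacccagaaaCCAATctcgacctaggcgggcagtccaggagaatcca
Spc25, Ttk, Cdc20 and Bub3 each held 1 TTTGAA and 2 CCAAT, whereas the Zwint window held 2 CCAAT and no TTTGAA and the Nuf2 window held neither. Bub3, at 1.31-fold, thus carried the same count of letters as Spc25, at 2.59-fold. Over the 19 genes with TTTGAA the median log2 fold change was 0.94, and over the 19 with a window but without it 0.88. A match describes these letters only and is not evidence of a bound site.

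Inner kinetochore genes were higher in all 12 cases, between 1.32-fold and 2.18-fold. Cenpa, which encodes the centromeric histone itself, stood at 1186, 943 and 1114 normalized counts in the UK-5099 libraries and at 579, 573 and 504 in the 3-inhibitor libraries (log2 fold change 0.96 ± 0.09, SE; limma adjusted p = 2.73e-06). The groups did not overlap. The remaining 11 encode subunits of the constitutive centromere-associated network, which bridges CENP-A chromatin to the outer layer. Cenpu had the largest estimate, 2.18-fold, and also the least certain one (0.21, SE): its UK-5099 libraries stood at 163, 139 and 134 normalized counts and its 3-inhibitor libraries at 79.4, 80.4 and 44.8, the last of these well below its fellows. Cenpi, a partner of Cenph and Cenpk in a subcomplex, was 2.09-fold higher, with Cenph at 1.85-fold and Cenpk at 1.72-fold, and Cenpm, of the same subcomplex, at 1.84-fold. Cenpn and Cenpl, which recognise CENP-A nucleosomes, were 1.89-fold and 1.48-fold higher. Cenpt and Cenpw, histone-fold partners that contact DNA, stood at 664, 607 and 669 and at 185, 152 and 138 normalized counts with UK-5099, against 387, 393 and 370.0 and 78.3, 70.6 and 97.7 with the 3 inhibitors. They were 1.68-fold and 1.92-fold higher, without overlap of the groups, and Cenpq, of the same subcomplex as Cenpu, was 1.90-fold higher.

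Cenpp was the exception in firmness within this group. It stood at 102, 107 and 90.1 normalized counts with UK-5099 and at 77.3, 77.7 and 69.4 with the 3 inhibitors (log2 fold change 0.40 ± 0.14, SE; limma adjusted p = 0.0332). The groups were apart but close. Its call ended after centring on the median (adjusted p = 0.0807), without the low filter (0.0553) and on leaving out any 1 library other than UK-5099 replicate 3, in a range of adjusted p over the alternatives from 0.0115 to 0.103.

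The outer kinetochore genes were higher in 7 of 8 cases, and the remaining gene, Zwint, did not pass the test. The 4 subunits of the NDC80 complex, the microtubule-binding rod of the kinetochore, were all about 2-fold higher or more. Spc25 stood at 579, 568 and 488 normalized counts with UK-5099 and at 206, 214 and 207 with the 3 inhibitors (log2 fold change 1.37 ± 0.09, SE; limma adjusted p = 1.53e-07). Nuf2 stood at 561, 454 and 474 with UK-5099 and at 219.6, 190.3 and 197 with the 3 inhibitors, 2.44-fold higher. Neither gene's groups came near each other. Their partners Spc24 and Ndc80 stood at 393, 355 and 367 and at 498, 471 and 468 normalized counts with UK-5099, against 193, 185 and 144 and 245, 267 and 210.1 with the 3 inhibitors, which made them 2.14-fold and 1.99-fold higher. Knl1, the scaffold that recruits the BUB kinases, was 1.93-fold higher.

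The MIS12 complex, which anchors the outer layer to the inner one, was uneven in its estimates. Mis12 stood at 1043, 1063 and 1077 normalized counts with UK-5099 and at 858, 880.2 and 867 with the 3 inhibitors, and Dsn1 at 499.9, 500.2 and 465 and at 335, 365 and 356. Both were called, with the libraries of the groups apart, at 1.22-fold (log2 fold change 0.29 ± 0.05, SE; limma adjusted p = 0.000384) and 1.39-fold. The other subunits of the complex, Nsl1 and Pmf1, come from the list of further outer kinetochore genes and were 2.26-fold and 1.92-fold higher (limma adjusted p = 5.35e-06 and 5.48e-06). Zwint, which binds Knl1 and links it to the RZZ complex of the corona, stood at 2211, 2253 and 2196 normalized counts with UK-5099 and at 2142, 2217 and 2068 with the 3 inhibitors. These values overlapped (log2 fold change 0.05 ± 0.04, SE; limma adjusted p = 0.345). The 95% interval of its fold ran from 0.970 to 1.11, and its estimate changed sign, to -0.037, when libraries were centred on the median.

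**Figure D2:**
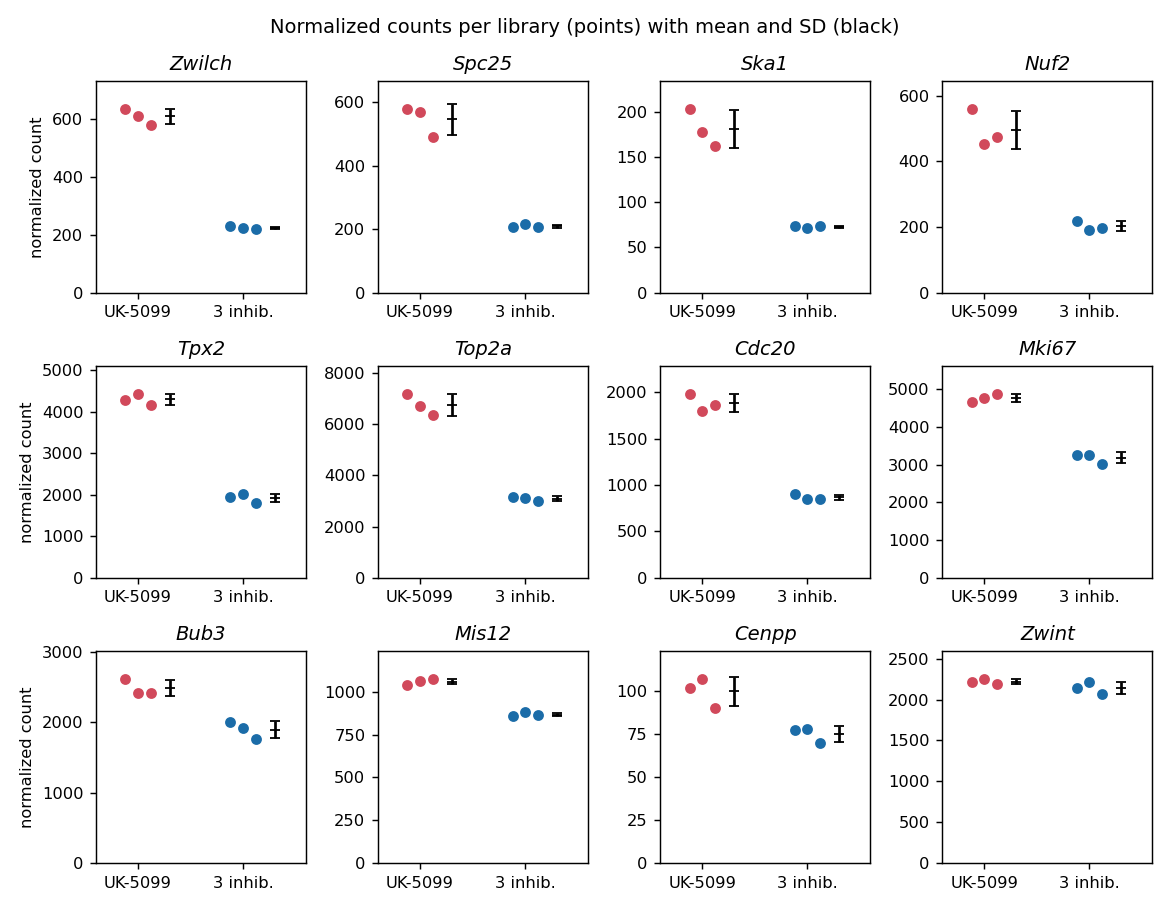
Normalized counts (y axes, from 0) of 12 genes in the 3 UK-5099 libraries (left, red points) and the 3 libraries with 3 inhibitors (right, blue points), with the mean and SD in black. Zwilch, Spc25, Ska1 and Nuf2 have the largest folds and Bub3, Mis12, Cenpp and Zwint the smallest; the groups overlap for Zwint only.

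Zwilch, a subunit of the RZZ complex that brings the checkpoint and dynein to unattached kinetochores, had the largest fold of the 44. It stood at 636, 609.7 and 581 normalized counts with UK-5099 and at 229, 223 and 221 with the 3 inhibitors (log2 fold change 1.44 ± 0.07, SE; limma adjusted p = 3.03e-08). The lowest UK-5099 library was far above the highest 3-inhibitor library. Of the other subunits of that complex, taken from the list of further outer kinetochore genes, Kntc1 was 2.17-fold higher and Zw10 did not pass the test (1.10-fold, limma adjusted p = 0.124).

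The Ska complex, which couples kinetochores to shortening microtubules, was higher in each of its 3 subunits. Ska1 stood at 203, 177 and 162 normalized counts with UK-5099 and at 73.2, 71.5 and 73.1 with the 3 inhibitors (log2 fold change 1.30 ± 0.13, SE; limma adjusted p = 6.53e-06). Ska2 stood at 385, 393 and 389.7 and at 228, 251 and 226, 1.66-fold higher, and Ska3 at 242, 274 and 255 and at 178, 134 and 137, 1.72-fold higher. All 3 had separate groups. Cenpe, the kinesin of the corona that moves chromosomes to the spindle equator, stood at 1289, 1399 and 1321 normalized counts with UK-5099 and at 832, 833 and 816 with the 3 inhibitors, 1.61-fold higher. Cenpf, a large corona protein, was 1.41-fold higher.

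All 6 genes of the spindle assembly checkpoint and its target were higher, 5 of them by more than 2-fold. Ttk, the kinase (MPS1) that starts checkpoint signalling, stood at 506, 452 and 414 normalized counts with UK-5099 and at 224, 214 and 166 with the 3 inhibitors, 2.28-fold higher. Bub1, a kinase that docks on Knl1, stood at 962, 910.4 and 961 and at 439, 447 and 415 (log2 fold change 1.12 ± 0.06, SE; limma adjusted p = 4.96e-08). Bub1b, which encodes the inhibitor BUBR1, and Mad2l1, which encodes MAD2, were 2.07-fold and 2.02-fold higher. Cdc20, the activator of the anaphase-promoting complex that the checkpoint holds back, was 2.17-fold higher. Bub3, the adaptor that BUB1 and BUBR1 share, had the smallest fold of the group. It stood at 2615, 2416 and 2421 normalized counts with UK-5099 and at 2009, 1918 and 1761 with the 3 inhibitors (log2 fold change 0.39 ± 0.06, SE; limma adjusted p = 0.000112). Its groups did not overlap.

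The mitotic kinases and the chromosomal passenger complex were higher in 7 of 7 cases, between 1.42-fold and 2.23-fold. Tpx2, which activates Aurora A on spindle microtubules, stood at 4288, 4433 and 4173 normalized counts with UK-5099 and at 1949, 2012 and 1813 with the 3 inhibitors. It had the largest fold of the group (log2 fold change 1.16 ± 0.05, SE; limma adjusted p = 6.86e-09). The kinases themselves had smaller estimates: Aurka, of the spindle poles, was 1.70-fold, Plk1, which acts from mitotic entry to cytokinesis, 1.67-fold and Aurkb, the kinase of the passenger complex, 1.87-fold higher. Among the partners of Aurkb, Birc5 (survivin) and Cdca8 (borealin) were 2.03-fold and 1.75-fold higher, whereas the scaffold Incenp was 1.42-fold higher. Birc5 stood at 1095, 987 and 958 normalized counts with UK-5099 and at 526, 523 and 449 with the 3 inhibitors. Incenp stood at 1372, 1261 and 1274 and at 996, 912 and 855. Both pairs of groups were apart, as were those of Aurkb, at 616, 565 and 617 with UK-5099 against 351, 309 and 299.6 with the 3 inhibitors, and of Aurka, at 808, 735 and 779 against 451, 466 and 445.

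The shugoshins, which protect centromeric cohesion until anaphase, were both higher. Sgo1 stood at 669, 551 and 629.7 normalized counts with UK-5099 and at 340.1, 294 and 258 with the 3 inhibitors, 2.08-fold higher, and Sgo2a at 242, 187 and 194 and at 121, 116 and 119, 1.73-fold higher. Neither gene's groups overlapped. Sgo2a has a related copy, Sgo2b, and 35.0% of its exon bases also lie in exons of Kctd18 on the opposite strand in GENCODE M21. The strand setting of the counting is not given in the sources used here, so its level is uncertain. Of the 44 genes 14 shared exon bases with another gene, and in 4 of them the share was above 10%: Sgo2a, Cenpu (26.7%), Cenpp (12.6%) and Ska2 (10.1%), all with genes on the opposite strand.

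Top2a and Hmmr exceeded Mki67, the usual proliferation marker, in fold. Top2a, the topoisomerase that untangles sister chromatids, stood at 7181, 6699.6 and 6340.5 normalized counts with UK-5099 and at 3166, 3115 and 2991 with the 3 inhibitors, 2.18-fold higher. Hmmr, a spindle-associated hyaluronan receptor, was 2.34-fold higher. Mki67, whose protein coats mitotic chromosomes, stood at 4666, 4764 and 4878 and at 3268, 3263 and 3023 (log2 fold change 0.58 ± 0.04, SE; limma adjusted p = 6.85e-07). Of the other 43 genes, 35 had a larger log2 fold change than Mki67, and this order is a description of the estimates.

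**Figure D3:**
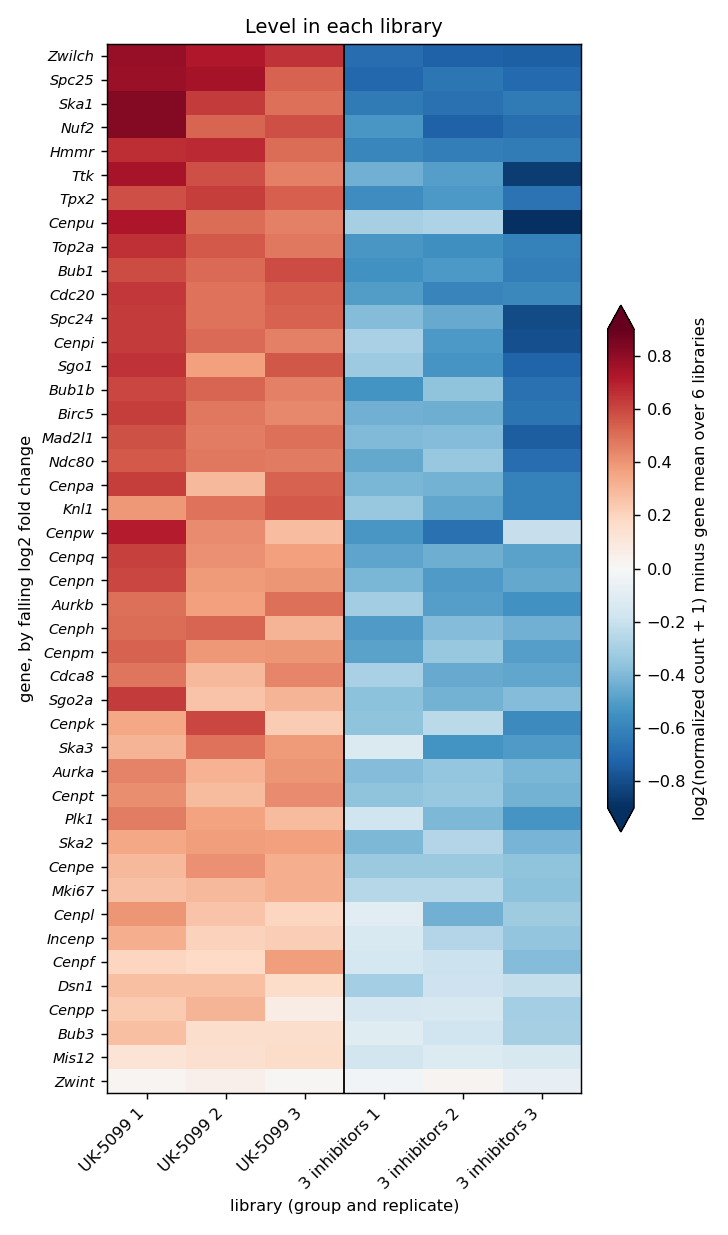
Each library's log2(normalized count + 1) minus the gene's mean over all 6 libraries, from blue (below) to red (above), for the 44 genes by falling log2 fold change, with UK-5099 libraries left of the line and libraries with 3 inhibitors right of it. The groups separate in every row but the lowest, Zwint, and 3-inhibitor replicate 3 is the lowest of its group in 32 of the 44 rows.

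Within each group the genes tended to be high or low together by library. UK-5099 replicate 1 was the highest of its group in 28 of the 44 genes, replicate 2 in 10 and replicate 3 in 6. Among the 3-inhibitor libraries, replicate 1 was the highest in 24 and replicate 2 in 19, and replicate 3 was the highest in 1 and the lowest in 32. These offsets were small beside the difference between the groups. The median over the 44 genes of a library's deviation from its group's mean lay between -0.04 and 0.07 on the log2 scale with UK-5099 and between -0.06 and 0.04 with the 3 inhibitors. The median coefficient of variation of the genes was 6.19% with UK-5099 and 6.43% with the 3 inhibitors.

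Levels between genes were compared as normalized counts per kilobase of exon, using exon lengths of GENCODE M21. With UK-5099 the highest were Cdc20 (1008 per kilobase), Tpx2 (919), Top2a (748), Zwint (501) and Mki67 (474). With the 3 inhibitors Zwint ranked first (483 per kilobase), ahead of Cdc20 (464) and Tpx2 (412). The lowest in both groups was Cenpk, at 22.8 per kilobase with UK-5099 and 13.1 with the 3 inhibitors. Within the NDC80 complex, whose subunits assemble in equal numbers, Spc25 and Spc24 stood at 171 and 144 per kilobase with UK-5099, against 65.7 and 67.6 with the 3 inhibitors. Nuf2 and Ndc80 stood at 78.2 and 73.7 with UK-5099, against 31.9 and 37.1 with the 3 inhibitors. Union exon lengths include long alternative ends, so the order of levels is approximate.

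Ratios between genes of related function were compared within libraries. The log2 ratio of normalized counts plus 1 was taken for 10 pairs. These were 8 pairs of partners in a complex, the 2 shugoshins and the 2 Aurora kinases. They were compared by a two-sided exact permutation test, whose smallest p with 3 against 3 is 0.1, so that none could pass a threshold of 0.05. After Benjamini-Hochberg adjustment over the 10 pairs, the smallest exact permutation p found was 0.2. In 5 pairs the libraries of the groups did not overlap, each with p = 0.1 (exact). The log2 ratio of Bub3 to Bub1 was 1.39 ± 0.06 with UK-5099, against 2.12 ± 0.06 with the 3 inhibitors (SD over 3 libraries), a difference of -0.73. That of Ska2 to Ska1 was 1.11 ± 0.17 and 1.68 ± 0.10, and that of Incenp to Birc5 0.36 ± 0.04 and 0.88 ± 0.07. Those of Mis12 to Dsn1 and of Ndc80 to Nuf2 differed by -0.18 and -0.29. In each of the 5 pairs the gene named first was lower relative to its partner with UK-5099. Which gene is named first was a choice, so the shared sign of these differences is not a result.

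The other 5 pairs overlapped between the groups. The ratio of Spc24 to Spc25 differed by -0.27 (exact permutation p = 0.2), that of Sgo2a to Sgo1 by -0.26 (exact p = 0.2), that of Aurkb to Aurka by 0.14 (exact p = 0.3) and that of Cenpt to Cenpw by -0.19 (exact p = 0.4). That of Ska2 to Ska3 differed by -0.06 (exact p = 0.8).

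**Figure D4:**
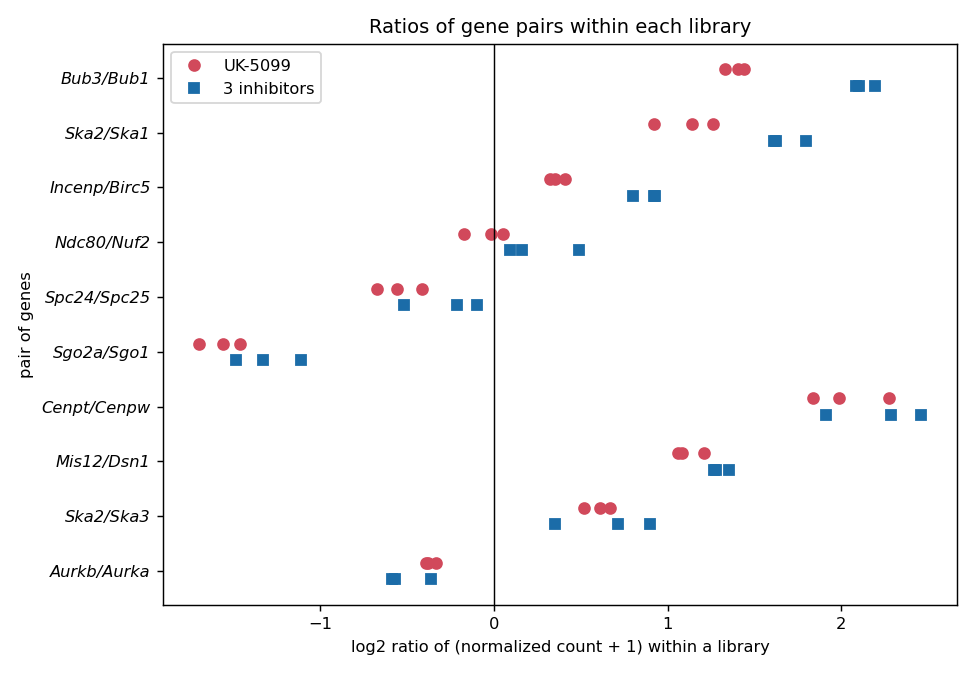
Log2 ratio of normalized counts plus 1 of 2 genes within each library (x axis) for 10 pairs, with UK-5099 libraries as red circles above and libraries with 3 inhibitors as blue squares below. The groups are apart for Bub3/Bub1, Ska2/Ska1, Incenp/Birc5, Mis12/Dsn1 and Ndc80/Nuf2.

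Beyond the 44 genes, 8 lists of genes that act around them held 142 genes, all tested, of which 109 were higher and 10 lower with UK-5099. Over all genes tested, 27.2% were called higher and 26.6% lower. Every list had a positive median, and the medians ran from 0.25 to 0.81 on the log2 scale, against 0.93 for the 44 genes and 0.00 for all genes tested. Central spindle, cytokinesis, spindle pole and centriole genes were higher in 13 of 13 cases, including Tacc3 (1.85-fold), which stabilises spindle microtubules, the centriole kinase Plk4 (2.11-fold) and Ckap5 (1.65-fold), a microtubule polymerase. Genes of mitotic entry were higher in 9 of 12 cases, with Ccnb1, Ccna2 and Cdk1, the cyclins and kinase that drive entry, at 2.27-fold, 2.01-fold and 2.18-fold. Wee1, which restrains Cdk1, was lower at a log2 fold change of -0.20 (limma adjusted p = 0.0232). Genes of S phase were higher in 28 of 31 cases with a median log2 fold change of 0.81; those with the smallest adjusted p were Rrm1, Rrm2 and Mcm4, at 2.04-fold, 2.11-fold and 1.90-fold.

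Of 10 further inner kinetochore and CENP-A loading genes 8 were higher. Mis18a and its partner Oip5, which license CENP-A loading, were 1.89-fold and 2.28-fold higher. Cenpb, which binds the centromeric satellite box, was lower by a little, averaging 4265 ± 18.0 normalized counts over the UK-5099 libraries, against 4717 ± 175 over the 3-inhibitor libraries (SD, 3 libraries each). Its log2 fold change was -0.14 ± 0.04 (SE; limma adjusted p = 0.0105). Of 17 further outer kinetochore and checkpoint genes 13 were higher, with Kntc1, Trip13, which remodels MAD2, and Spag5 at 2.17-fold, 2.19-fold and 1.95-fold. Clasp1, a microtubule stabiliser, and Mad2l1bp, which works with Trip13 to disassemble the checkpoint, were lower, with log2 fold changes of -0.60 and -0.42.

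The list around the anaphase-promoting complex, the ubiquitin ligase that the checkpoint inhibits, also held its coactivator, E2 enzymes, an inhibitor and key substrates. Its differences were smaller, with 12 of the 20 genes higher at a median log2 fold change of 0.27. The E2 enzyme Ube2c, the separase gene Espl1 and Fbxo5, an inhibitor of the complex, were 1.89-fold, 1.89-fold and 1.92-fold higher. None of these is a subunit of the complex. The core subunit Anapc2 was lower (-0.16 ± 0.05, SE; limma adjusted p = 0.0260). Cohesin and condensin genes were higher in 15 of 20 cases at a median of 0.32, with the condensin genes Ncapg2, Smc2 and Ncapg at 1.80-fold, 1.93-fold and 2.11-fold, and the cohesin loader Nipbl lower (-0.27). In the list of transcription factors of G2/M genes, which also held E2F, DP and RB family genes at large, 11 of 19 were higher. Mybl2, the B-MYB that joins MuvB, was 1.89-fold, Rbl1 (p107) 1.69-fold and E2f8 1.72-fold higher, whereas E2f2, Tfdp2, E2f5 and Rbl2 (p130) were lower, at -1.01, -0.37, -0.54 and -0.22. Rbl1 and Rbl2, each a possible subunit of the DREAM repressor, thus differed in opposite directions.

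Of the 10 genes called lower in these lists, 4 had small differences whose call ended on leaving out a library. That of Cenpb did not hold without 3-inhibitor replicate 1, where the adjusted p reached 0.0578 (the highest over the alternatives, whose lowest was 0.000364). That of Anapc2 ended without 3-inhibitor replicate 1 or 3 or UK-5099 replicate 2, with adjusted p between 0.00174 and 0.101 over the alternatives. Those of Wee1 and Rbl2 ended without 3-inhibitor replicate 1 or 2, and that of Wee1 also without UK-5099 replicate 1 or 2, with adjusted p between 0.00185 and 0.113 for Wee1 and between 0.00319 and 0.112 for Rbl2.

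**Figure D5:**
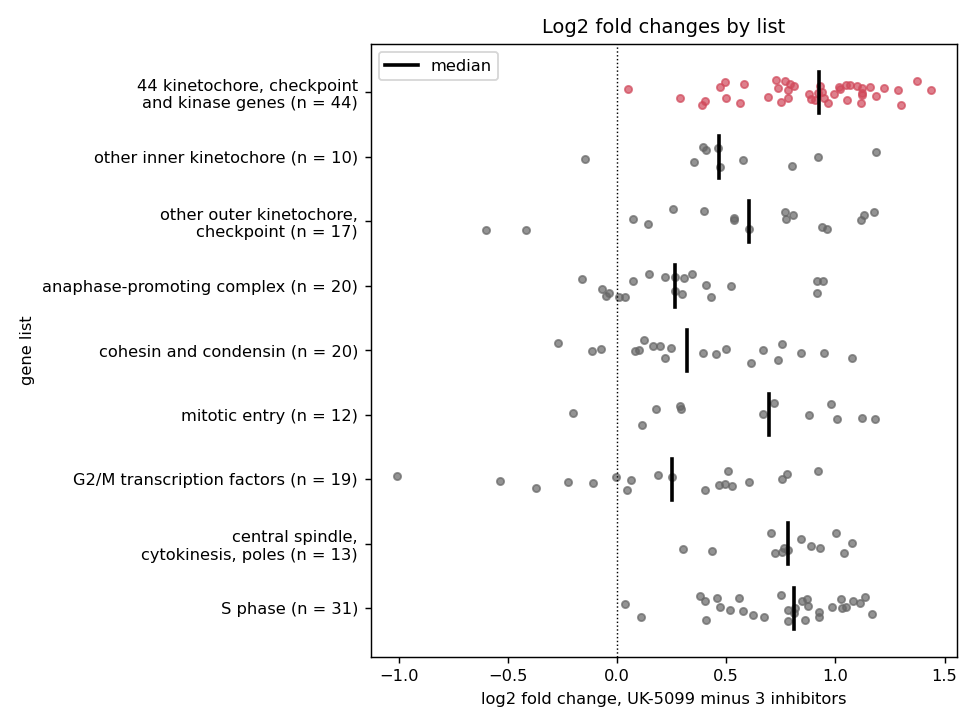
Log2 fold change, UK-5099 minus 3 inhibitors (x axis), of the 44 genes (red, top) and of 8 lists of related genes (grey), with a black bar at each median; vertical scatter within a list has no meaning. The median of the 44 genes is 0.93, and those of the lists run from 0.25 for G2/M transcription factors to 0.81 for S phase. The list of G2/M transcription factors also holds E2F, DP and RB family genes at large.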

How the data were processed

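RNA was sequenced from 6 libraries, 3 with UK-5099 and 3 with the 3 inhibitors. The deposited table holds values of a unit other than plain counts, namely log2 values of gene counts scaled for each library by the authors; genes without reads carry text there. Per the submitters' processing notes, HISAT2 2.1.0, DESeq2 1.36.0 and GRCm39 had a part in this, with no role stated, and neither the counting tool, its strand setting nor its annotation is given in the sources used here. Normalized counts were computed here as powers of 2 of these values, with text taken as 0, and 43 missing symbols were filled from the reference by gene ID. The values of each library were whole multiples of 1 step, within a tolerance of 0.02 reads, for nearly all values (99.9915% in UK-5099 replicate 1), which gave the recovered reads and depths. Because no raw counts were used, the test was limma 3.58.1 (R 4.3.3) on log2(normalized count + 1), with a mean-variance trend and Benjamini-Hochberg adjustment, in the 15704 genes with a mean of at least 10 over the 6 libraries. Fold changes on this scale understate those of low genes. All 44 genes passed that filter, which used no group.

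The 44 genes and all lists were chosen with earlier results of these data known, so no test of a list was made. All 44 genes are named. Values by library are given for the 4 largest and 4 smallest log2 fold changes, genes that did not pass, the highest mean of each role and the subunits of the ratios, with some others. In the other lists the named genes are up to 3 called higher with the smallest adjusted p and those called lower, and Zw10, Nsl1 and Pmf1 were added after their values were seen, as subunits of the complexes of Zwilch and Mis12. The result of 1 gene that this rule takes is not reported here. Ratios were tested by exact permutation (scipy 1.17.1). Promoter windows and exon lengths are of GRCm38 and were used for promoter sequences, exon lengths and exon overlap only. The limma step was tested on simulated data. Alternatives changed the scaling, filter, pseudocount, limma options, tool, threshold, replicate block and set of libraries.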

Additional observations from a re-analysis of the deposited data

How the results depend on the processing

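Of the 44 genes, 42 kept their direction and their side of the threshold under all 17 alternatives run per gene; the exceptions were Cenpp, described above, and Zwint, whose estimate of 0.05 became -0.037 when libraries were centred on the median (limma adjusted p = 0.503). Between 42 and 43 were higher under every alternative without a fold minimum, none was lower under any, and 35 passed with a minimum of 1.5-fold. Over these alternatives 13.7% to 31.8% of all genes were called higher. That minimum left 3402 genes called (1646 higher, 1756 lower) of 8449, and 67 list genes (65 higher, 2 lower) of 119. The list genes called lower, 10 in number, were 6 without the trend, 6 at an adjusted p under 0.01, 14 with centring and between 6 and 11 on leaving out 1 library, with 6 without 3-inhibitor replicate 1. On leaving out 1 library, the Ska2 to Ska3 difference ranged from -0.21 to 0.067, the positive value coming without 3-inhibitor replicate 2. The causes were not tested. Same-numbered libraries did not deviate together (correlations -0.02, 0.12 and -0.09), so the numbers were not taken to pair the samples; with the replicate block 8423 genes were called (4275 higher, 4148 lower), 43 of the 44 genes among them, and 120 list genes. Centring moved the median of all genes by -0.09 on the log2 scale and upper-quartile rescaling by 0.03, with 54.5% of calls higher under the second.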
